A study of Mus musculus with 14 samples.

Results

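The granule genes of bone marrow killer lymphocytes were followed across 2 cell types and 2 genotypes. The set held 10 genes chosen by name for their roles in the cytotoxic granule, out of 46078 gene rows in the table: the granzymes Gzma, Gzmb, Gzmc, Gzmk and Gzmm, the pore-forming protein gene Prf1, and Srgn, Nkg7, Ctsw and Lamp1. All 10 had a row and all 10 were among the 26990 genes that passed the filter on low counts. No measured value was used to choose them, but they were chosen with earlier results of these libraries known.

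Bulk RNA-seq was made from immature natural killer cells (iNK) and immature type 1 innate lymphoid cells (iILC1) sorted from the bone marrow of C57BL/6 mice aged 8 weeks, with 2000 cells per sample. The iNK gate was CD3-, NK1.1+, IL-7Ra-, DX5+, CD11b- and CD27+, and the iILC1 gate was CD3-, NK1.1+, IL-7Ra+ and CD49a+. The cKO mice carried Vav-Cre and, at the Il15 gene, 1 floxed allele and 1 knockout allele (labelled Vav-Cre;Il-15-flox/KO), and the controls carried the same floxed and knockout alleles without the Cre (Il-15-flox/KO). Vav-Cre acts throughout the blood lineage, so the cells sorted are themselves among those in which the floxed allele is deleted. There were 4 cKO iNK, 3 control iNK, 4 cKO iILC1 and 3 control iILC1 libraries. Whether each sample of a group was a different mouse is not stated in the labels, and the p-values then reflect sample-to-sample spread alone, which may be technical.

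Killer lymphocytes store granzymes, a family of serine proteases, and perforin in secretory lysosomes, bound to the proteoglycan serglycin. On contact with a target cell the granules fuse with the plasma membrane, perforin opens a path into the target, and the granzymes cleave proteins inside it. Immature NK cells already carry granzyme transcripts, and IL-15, a cytokine presented to NK cells and ILC1s by neighbouring cells, is known to raise granzyme B and perforin in mature NK cells.

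Total counts were 6254844 to 12572326 in cKO iNK, 6238016 to 8013984 in control iNK, 5478641 to 10308693 in cKO iILC1 and 3512796 to 4933284 in control iILC1. Levels are given as CPM, the count of a gene relative to the library total and scaled by TMM factors, and where genes are compared with each other, as CPM per kilobase of exon. All 6 defining markers of NK cells and ILC1s reached a mean of at least 10 CPM in every group. The 6 NK markers summed to 254 to 433 CPM per library in iILC1 and 1525 to 3131 CPM in iNK, and the 6 ILC1 markers to 1130 to 3384 CPM in iILC1 and 301 to 420 CPM in iNK. Both lists hold genes of the sort gates (Itga2 for DX5, Itgam for CD11b, Il7r, and Itga1 for CD49a), so these sums are not independent of the sort. The NK marker Klrg1 went the other way in cKO, at a mean of 10.7 CPM in iILC1 and 6.26 CPM in iNK. Olfactory and vomeronasal receptor genes, which lymphocytes should not use, served as a measure of background reads. They summed to a median of 2440 CPM in cKO iNK and 1857 CPM in control iNK, and to 2971 CPM in cKO iILC1 and 3388 CPM in control iILC1. Among iILC1 libraries cKO iILC1 replicate 1 had the least background (1881 CPM) and among iNK libraries control iNK replicate 1 (1621 CPM). These libraries also had the lowest TMM factors, 0.803 and 0.801, and lay lowest on the first principal component within their cell type, and results that turn on them are given without them below. The deletion of Il15 could not be checked from counts per gene, because the floxed part is not resolved.

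The promoters of Gzma and Gzmb are shown because these members were called for genotype in both cell types, and that of Gzmk because it lies in the same cluster as Gzma and its estimate for genotype had the opposite sign. Each window runs from 250 bases before to 50 bases after the RefSeq start site on GRCm38.p6, the assembly that mm10 names, and is written along the gene. Capitals mark matches on either strand to TTCNNNGAA (the spaced palindrome of STAT factors), TCACACC (T-box factors), TGTGGT (RUNX factors) and TGANTCA (AP-1). The Gzma window is chr13:113100932-113101231, the Gzmb window chr14:56262285-56262584 and the Gzmk window chr13:113180916-113181215, all on the minus strand.
Gzma: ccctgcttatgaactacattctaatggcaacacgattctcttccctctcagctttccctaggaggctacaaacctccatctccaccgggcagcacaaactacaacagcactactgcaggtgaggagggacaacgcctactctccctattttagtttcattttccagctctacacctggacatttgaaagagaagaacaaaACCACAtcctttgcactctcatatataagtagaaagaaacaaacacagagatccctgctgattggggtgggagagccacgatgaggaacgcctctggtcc
Gzmb: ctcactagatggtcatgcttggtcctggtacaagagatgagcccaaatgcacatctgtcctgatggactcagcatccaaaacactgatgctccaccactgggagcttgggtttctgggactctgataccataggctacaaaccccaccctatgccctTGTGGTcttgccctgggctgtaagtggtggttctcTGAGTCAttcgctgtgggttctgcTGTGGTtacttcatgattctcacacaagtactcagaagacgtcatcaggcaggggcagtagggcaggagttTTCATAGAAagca
Gzmk: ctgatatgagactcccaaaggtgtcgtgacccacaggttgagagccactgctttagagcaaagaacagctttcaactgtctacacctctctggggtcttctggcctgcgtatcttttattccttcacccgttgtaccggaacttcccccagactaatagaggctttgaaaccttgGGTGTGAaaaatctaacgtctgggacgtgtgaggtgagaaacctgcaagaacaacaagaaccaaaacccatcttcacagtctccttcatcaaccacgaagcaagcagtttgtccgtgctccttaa
The Gzma window held a RUNX match at position -50 from the start site, on the opposite strand. The Gzmb window held RUNX matches at -93 and -34, an AP-1 match at -58 and a STAT-type match (TTCATAGAA) at 38, past the RefSeq start site. The counted Gzmb gene begins at 56262260 on the minus strand, so the whole window lies upstream of it. The Gzmk window held a T-box match at -75 on the opposite strand. Of 32851 promoter windows in the same set, 16.8% held TGTGGT, 8.3% TTCNNNGAA, 7.81% TGANTCA and 3.98% TCACACC, so none of these motifs is rare. A match is a run of letters and not a measured binding site. Of the 10 members, 9 had a window in the set, and Ctsw had none.

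By the table's own coordinates on mm10, Gzma (ENSMUSG00000023132) spans 113093825 to 113100979 and Gzmk (ENSMUSG00000042385) 113171608 to 113225908 on the minus strand of chromosome 13, 70.6 kb apart. The RefSeq window of Gzmk lies inside that span. Gzmb (ENSMUSG00000015437) spans 56258856 to 56262260 and Gzmc (ENSMUSG00000079186) 56231401 to 56234656 on the minus strand of chromosome 14, 24.2 kb apart. Gzmm, Prf1 and Srgn lie on chromosome 10, Nkg7 on chromosome 7, Ctsw on chromosome 19 and Lamp1 on chromosome 8. Counts were per gene over all its exons, so no transcript, exon or UTR was resolved. No member shared exon bases with another row of the table, and the span of Gzmk also held Esm1 on the other strand. The granzyme genes of chromosome 14 are close relatives of each other, and how reads that fit several of them were counted is not given in the sources used here, so the counts of Gzmb, Gzmc, Gzmd, Gzme and Gzmn are uncertain to that extent.

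**Figure D1:**
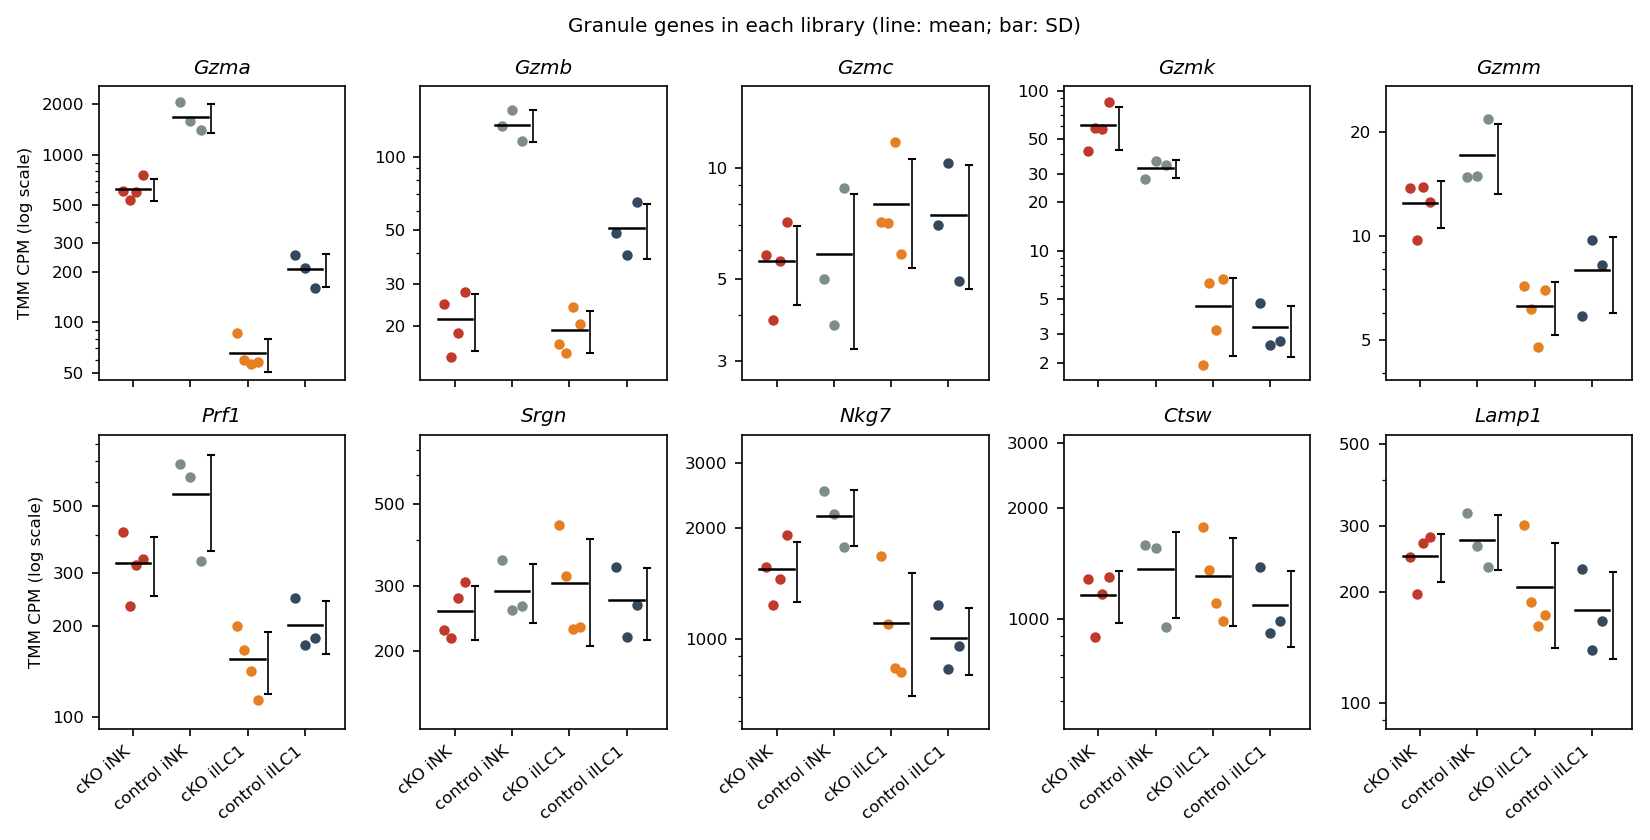
Level of each of the 10 granule genes in every library, as TMM-scaled CPM on a log axis, with a point per library, a line at the group mean and a bar for the SD (n = 4 cKO iNK, 3 control iNK, 4 cKO iILC1 and 3 control iILC1). Gzma and Gzmb lie lower in every cKO library than in any control library of the same cell type, whereas Gzmc, Prf1, Srgn, Nkg7, Ctsw and Lamp1 overlap between genotypes in both cell types.

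In iNK cells Gzma and Gzmb were lower in cKO than in control. Gzma, which encodes a protease that cuts after basic residues, was at 0.370 times the control level and Gzmb, whose product cuts after aspartate and activates caspases, at 0.159 times, by the fitted fold changes. The other 8 members did not pass the test, with estimates from -0.76 for Prf1 to 0.89 for Gzmk on the log2 scale. Over all genes tested 0.408% were called, 0.252% as lower and 0.156% as higher, which is the background for this count of 2 of 10.

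Gzma had 606, 535, 601 and 761 CPM in cKO iNK, against 2063, 1595 and 1416 CPM in control iNK. Every cKO library lay below every control library, which was so in this direction for 4.75% of all genes tested and in either direction for 8.84%. The log2 fold change was -1.43 (standard error, SE, 0.237, adjusted p = 0.00141, edgeR quasi-likelihood test).

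Gzmb had 24.6, 14.98, 18.7 and 27.6 CPM in cKO iNK, against 133, 157 and 116 CPM in control iNK. The groups were far apart, with the highest cKO library below the lowest control library. The log2 fold change was -2.65 (SE 0.235, adjusted p = 5.57e-08, edgeR quasi-likelihood test), and the call for Gzma and for Gzmb remained in all 23 alternatives of processing.

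Gzmk encodes granzyme K, a relative of granzyme A with a like preference for basic residues. It had 42.1, 58.5, 57.4 and 85.4 CPM in cKO iNK, against 28.0, 36.2 and 34.2 CPM in control iNK. The cKO libraries all lay above the control libraries, as they did for 4.09% of all genes tested. The log2 fold change of 0.89 (SE 0.291) had an adjusted p = 0.288 in edgeR and did not pass. With only the iNK libraries in the fit it was 0.92 with an adjusted p = 0.0305 in edgeR, the single alternative of 23 in which it passed.

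Gzmm, whose product prefers to cut after methionine, had 13.8, 9.71, 13.9 and 12.5 CPM in cKO iNK, against 14.8, 14.9 and 21.8 CPM in control iNK. The groups did not overlap, by a narrow margin, and the log2 fold change of -0.46 (SE 0.276) had an adjusted p = 0.717 in edgeR. Gzmc, a neighbour of Gzmb with a product of little known function, was low and overlapped, at 3.88 to 7.15 CPM in cKO iNK and 3.77 to 8.80 CPM in control iNK.

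Prf1 encodes perforin. It had 409, 234, 319 and 332 CPM in cKO iNK, against 687, 623 and 329 CPM in control iNK. The third control library fell among the cKO libraries, while the other control libraries were higher than all of them. The log2 fold change was -0.76 (SE 0.255, 95% interval -1.28 to -0.23) with an adjusted p = 0.336 in edgeR, and without control iNK replicate 3 it was -1.01 with an adjusted p = 0.0982. That library also had the most background of the control iNK group, at 2912 CPM.

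Nkg7 encodes a granule membrane protein that natural killer cells need for full degranulation. It had 1573, 1238, 1460 and 1918 CPM in cKO iNK, against 2519, 2190 and 1776 CPM in control iNK. The highest cKO library lay above the lowest control library, and the log2 fold change of -0.48 (SE 0.269) had an adjusted p = 0.689 in edgeR. Srgn, for serglycin, had a log2 fold change of -0.18 (SE 0.242), at 217 to 308 CPM in cKO iNK and 259 to 353 CPM in control iNK. Ctsw, for the cysteine protease cathepsin W of NK and T cells, had one of -0.23 (SE 0.263), at 899 to 1300 CPM in cKO iNK and 954 to 1591 CPM in control iNK. Lamp1, for the lysosomal membrane protein CD107a that appears on the surface when granules fuse, had one of -0.14 (SE 0.239), at 197 to 280.3 CPM in cKO iNK and 233 to 326 CPM in control iNK. These 3 genes overlapped between genotypes, and their 95% intervals ran from -0.77 to 0.35 at the widest. Of the 10 estimates 9 were below 0, with a median of -0.35, where the median over all genes tested was 0.06. With the background of each library as a covariate the estimates of Ctsw (0.01) and Lamp1 (0.05) turned sign.

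Marker transcripts of other cell types and of dividing cells differed with genotype in the iNK libraries. The 15 B lineage markers summed to 929 to 1478 CPM in cKO iNK and 429 to 659 CPM in control iNK, with 10 of 15 called higher. Genes of dividing cells moved the other way: the 10 markers summed to 790 to 1027 CPM in cKO iNK and 1517 to 2284 CPM in control iNK, with 4 of 10 called lower. Of 10 erythroid markers 2 were called higher, and the sums were 278 to 864 CPM in cKO iNK and 351 to 424 CPM in control iNK. Car2 made most of the control sum and averaged 231 CPM in cKO iNK and 362 CPM in control iNK. Hba-a1 averaged 127 and 6.36 CPM. The estimates were above 0 for 9 of the 10 and below 0 for 1, with a median log2 fold change of 2.07. No marker of these lists was at 0 in any group, and their part in the granzyme differences was not tested. With the marker genes of other cells, ribosomal and mitochondrial genes left out of the fit, 2 members were called as before. That fit drops genes and not cells and leaves the granzyme counts unchanged, so it cannot show the part of other cells. In bulk samples fewer cells that carry a transcript and less of it per cell cannot be told apart, which holds for every result here.

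In iILC1 cells the same 2 genes, Gzma and Gzmb, were lower in cKO than in control. By the fitted fold changes Gzma was at 0.313 and Gzmb at 0.377 times the control level. The other 8 members did not pass, with log2 estimates from -0.37 for Prf1 to 0.48 for Gzmk, and the libraries of both genotypes overlapped for each of these 8. Over all genes tested 0.0482% were called (13 genes), 0.0259% as lower and 0.0222% as higher, which is the background for this count of 2 of 10.

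Gzma had 87.1, 59.6, 56.5 and 58.1 CPM in cKO iILC1, against 254, 212 and 161 CPM in control iILC1. All cKO libraries lay below all control libraries, which was so in this direction for 2.82% of all genes tested, in the other for 2.66% and in either for 5.48%. The log2 fold change was -1.68 (SE 0.241, adjusted p = 0.00169, edgeR quasi-likelihood test), and the call remained in all 23 alternatives.

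Gzmb had 17.0, 15.6, 24.0 and 20.5 CPM in cKO iILC1, against 48.6, 39.4 and 64.8 CPM in control iILC1. There was no overlap. The log2 fold change was -1.41 (SE 0.236, adjusted p = 0.00807, edgeR quasi-likelihood test). Without control iILC1 replicate 3, the library with the most Gzmb in that group, it was -1.19 with an adjusted p = 0.411 in edgeR, so this call rested on that library. It remained in the other 22 alternatives.

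Prf1 had 199.6, 166, 143 and 114 CPM in cKO iILC1, against 247, 174 and 183 CPM in control iILC1. The highest cKO library lay among the controls, and the log2 fold change of -0.37 (SE 0.257) had a 95% interval of -0.90 to 0.16. Gzmm had a log2 fold change of -0.35 (SE 0.298), at 4.77 to 7.15 CPM in cKO iILC1 and 5.85 to 9.74 CPM in control iILC1. Gzmk had one of 0.48 (SE 0.385), at 1.94 to 6.61 CPM in cKO iILC1 and 2.58 to 4.68 CPM in control iILC1, and Gzmc one of 0.09 (SE 0.370). Nkg7 averaged 1107 ± 402 CPM (SD, n = 4) in cKO iILC1 and 1010 ± 207 CPM (SD, n = 3) in control iILC1. Its 4 cKO values were 1679, 1098, 838 and 814 CPM, with replicate 1 far above the rest. Srgn, Ctsw and Lamp1 were also highest in that library among the cKO iILC1, at 439.5, 1778 and 302 CPM. Without it the log2 estimates became -0.08 for Srgn, -0.14 for Nkg7 and -0.03 for Lamp1, against 0.15, 0.13 and 0.21 with it, and 0.07 for Ctsw, against 0.26 with it. The median estimate of the 10 members was 0.11, where that over all genes tested was 0.01, and without both libraries that stood apart it was -0.11, an alternative for this median chosen after seeing the data.

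In iILC1 the B lineage markers summed to 842 to 1338 CPM in cKO and 498 to 753 CPM in control, with 4 of 15 called higher. The markers of dividing cells summed to 445 to 617 CPM in cKO iILC1 and 529 to 757 CPM in control iILC1, and none of the 10 was called in edgeR, with 2 lower at an unadjusted p under 0.05 and 0 called by DESeq2. As background for such counts, 1221 of all 26990 genes tested had an unadjusted p under 0.05 for genotype in iILC1. Of 11 tested markers of T and NKT cells, Trac was called lower, 6 were lower at an unadjusted p under 0.05, and the median log2 fold change of the list was -1.02. The 12 listed summed to 612 to 1125 CPM in cKO iILC1 and 714 to 1161 CPM in control iILC1. The 13 markers of neutrophils and monocytes summed to 91.1 to 388 CPM in cKO iILC1 and 72.1 to 95.9 CPM in control iILC1. Of 12 tested none was called in edgeR, 5 were higher and 1 lower at an unadjusted p under 0.05, and the median log2 fold change was 1.44. DESeq2 called 0 of the 12, and it gave 6 of them no adjusted p. The part of these cells in the granzyme differences was not tested.

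**Figure D2:**
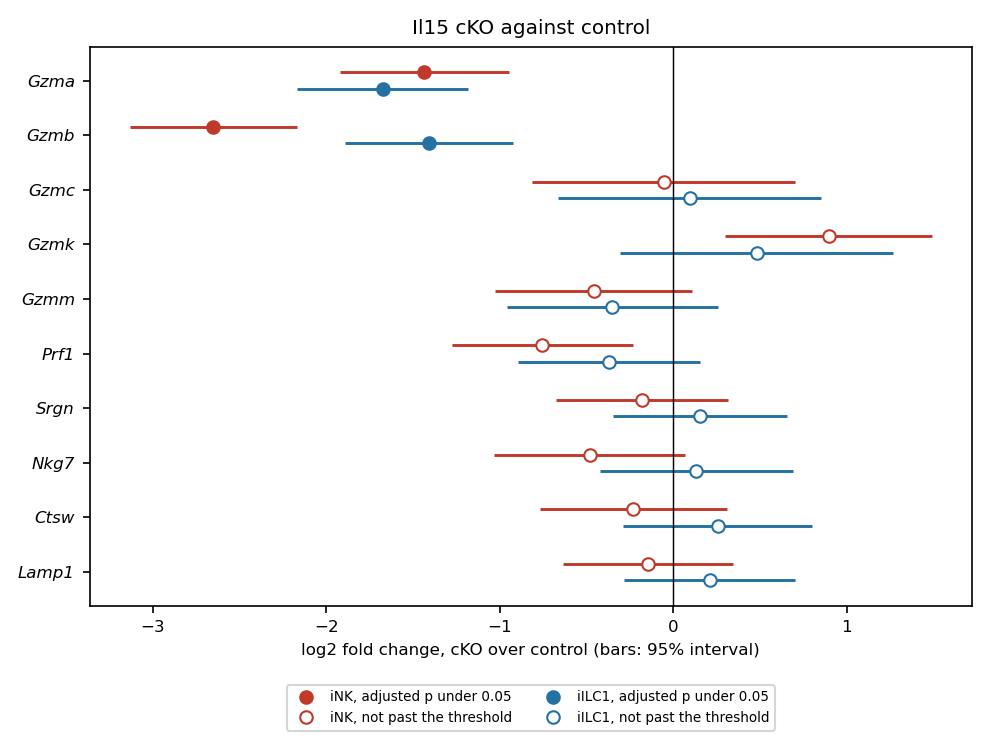
Log2 fold change of cKO over control for each granule gene, in iNK (upper of each pair) and iILC1 (lower), with bars for the 95% interval from edgeR's fit and filled points for an adjusted p under 0.05. The 4 filled points, Gzma and Gzmb in each cell type, lie between -2.65 and -1.41, and Gzmb is the gene whose iNK and iILC1 intervals do not overlap. The direct test of that difference for Gzmb did not pass (adjusted p = 0.360, edgeR quasi-likelihood test).

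The test of whether the genotype effect differed between iILC1 and iNK called none of the 10 members in edgeR, where 0.0778% of all genes tested were called, 0.0222% with a positive and 0.0556% with a negative difference. The count of members called by DESeq2 was also 0. Gzmb was the member with the smallest p. Its genotype effect was less negative in iILC1 than in iNK by 1.24 on the log2 scale (SE 0.333, 95% interval 0.56 to 1.92, unadjusted p = 0.000838), and its adjusted p = 0.360 in edgeR did not pass, with a range of 0.0959 to 0.983 over the 22 alternatives. No other member had an unadjusted p under 0.05, where 1905 of all 26990 genes tested had one. For Gzma the difference was -0.24 (SE 0.338, 95% interval -0.93 to 0.45), an interval that holds differences in either direction.

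The mix of granule transcripts also differed between the groups, as ratios of CPM per kilobase chosen after the values were seen and given without a test. Gzma over Gzmb was 39.7, 57.7, 51.8 and 44.5 in cKO iNK, against 24.98, 16.5 and 19.7 in control iNK. It was 8.29, 6.19, 3.80 and 4.58 in cKO iILC1, against 8.46, 8.69 and 4.01 in control iILC1. Gzmb thus made a smaller part of the pair in cKO iNK than in control iNK, while the iILC1 groups overlapped.

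Gzmk over Gzma was 0.0439, 0.0691, 0.0604 and 0.0710 in cKO iNK, against 0.00857, 0.0143 and 0.0153 in control iNK. In iILC1 it was 0.0141 to 0.0719 in cKO and 0.00772 to 0.0116 in control. The ratio was higher in every cKO library than in any control library of its cell type. In iNK the numerator and the denominator differed in opposite directions. In iILC1 the level of Gzmk was so low that background reads could set it, as given below.

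Gzmb over Prf1 was 0.0850 to 0.120 in cKO iNK and 0.281 to 0.512 in control iNK, and 0.123 to 0.259 in cKO iILC1 and 0.284 to 0.512 in control iILC1. The 2 control groups covered nearly the same range, and each cKO group lay below them. The 5 granzymes together held 786 ± 124 CPM per kilobase (SD, n = 4) in cKO iNK and 2063 ± 377 (SD, n = 3) in control iNK. In iILC1 they held 104 ± 14.1 (SD, n = 4) in cKO and 289.7 ± 48.6 (SD, n = 3) in control. Gzma made 90.7% of that sum in cKO iNK and 93.2% in control iNK, and 71.0% in cKO iILC1 and 81.6% in control iILC1. Gzmk made 5.54% in cKO iNK and 1.18% in control iNK, and Gzmb 1.91% in cKO iNK and 4.70% in control iNK.

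**Figure D3:**
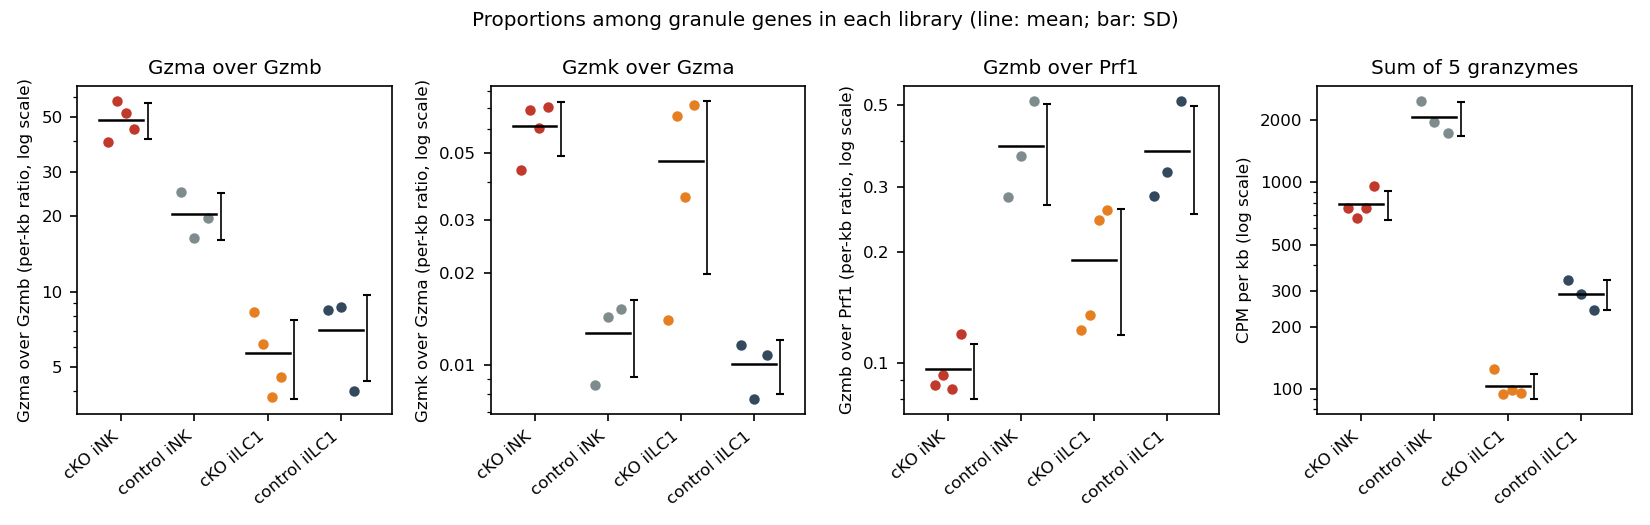
Ratios of CPM per kilobase between granule genes in each library, and the sum of the 5 granzymes in CPM per kilobase, all on log axes, with a point per library, a line at the mean and a bar for the SD. Gzma over Gzmb reaches 39.7 to 57.7 in cKO iNK against 16.5 to 24.98 in control iNK, and the granzyme sum is lower in every cKO library than in any control library of its cell type.

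The cell types were compared within each genotype. In cKO mice 4 of 10 members were lower in iILC1 (Gzma, Gzmk, Gzmm and Prf1), and in control mice 6 were (Gzma, Gzmb, Gzmk, Gzmm, Prf1 and Nkg7). Gzmc, Srgn, Ctsw and Lamp1 did not pass in either genotype. Over all genes tested 3.42% were called in cKO, 1.68% as lower and 1.74% as higher in iILC1, and 3.91% in control, 3% as lower and 0.911% as higher. The libraries of iILC1 lay wholly below those of iNK for 3.08% of genes in cKO and wholly above for 3.52%, in all 6.61%, and in control for 13% and 12%, in all 25%. These comparisons share their libraries with those of genotype.

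In cKO mice Gzma was at 65.3 ± 14.6 CPM (SD, n = 4) in iILC1 and 626 ± 95.8 CPM (SD, n = 4) in iNK, a log2 fold change of -3.26 (standard error 0.242, adjusted p = 1.03e-10, edgeR quasi-likelihood test). In control mice it was at 209 ± 46.9 CPM (SD, n = 3) in iILC1, against 1691 ± 334 CPM (SD, n = 3) in iNK, a log2 fold change of -3.02 (standard error 0.275, adjusted p = 2.57e-08). Gzmk was further apart, at 4.49 ± 2.30 CPM (SD, n = 4) in cKO iILC1 and 60.9 ± 18.02 CPM (SD, n = 4) in cKO iNK, and at 3.34 ± 1.17 CPM (SD, n = 3) in control iILC1, against 32.8 ± 4.30 CPM (SD, n = 3) in control iNK. Its log2 fold changes were -3.75 in cKO (SE 0.306, adjusted p = 6.30e-10) and -3.33 in control (SE 0.380, adjusted p = 1.26e-06). No iILC1 library reached an iNK library of its genotype for either gene. Per kilobase Gzmk averaged 3.24 CPM in cKO iILC1 and 2.40 CPM in control iILC1, below the 95th percentile of the silent receptor genes there, 4.92 and 4.87 CPM. At that level Gzmk in iILC1 could not be told apart from background.

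In cKO mice Gzmb was at 19.2 ± 3.79 CPM (SD, n = 4) in iILC1 and 21.5 ± 5.69 CPM (SD, n = 4) in iNK. The libraries overlapped, and the log2 fold change of -0.17 (standard error 0.221, adjusted p = 0.968, edgeR quasi-likelihood test) had a 95% interval of -0.62 to 0.29. In control mice Gzmb was lower in iILC1, at 50.9 ± 12.9 CPM (SD, n = 3), against 135 ± 20.2 CPM (SD, n = 3) in iNK, with a log2 fold change of -1.41 (standard error 0.251, adjusted p = 0.000785). The test of that change between the genotypes is the interaction given above, which did not pass. Prf1 had log2 fold changes of -1.05 in cKO (SE 0.241, adjusted p = 0.00732) and -1.44 in control (SE 0.281, adjusted p = 0.00212), with calls that remained in all 23 alternatives, as did those for Gzma and Gzmk. With the background covariate the estimate for Prf1 in control was -0.82.

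Nkg7 was at 1010 ± 207 CPM (SD, n = 3) in control iILC1, against 2162 ± 372 CPM (SD, n = 3) in control iNK, a log2 fold change of -1.10 (standard error 0.293, adjusted p = 0.0297, edgeR quasi-likelihood test). That call did not hold when control iNK replicate 1 or 2 was removed, nor without control iILC1 replicate 2 or 3, with adjusted p from 0.0714 to 0.196, and with the background covariate the estimate was -0.58. In cKO mice its log2 fold change was -0.48 (SE 0.251, adjusted p = 0.566). Without cKO iILC1 replicate 1 it was -0.72 with an adjusted p = 0.0370, so the absence of a call in cKO rested on that library.

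Gzmm had log2 fold changes of -0.99 in cKO (SE 0.266, adjusted p = 0.0302, edgeR quasi-likelihood test) and -1.10 in control (SE 0.311, adjusted p = 0.0427). The call in control was lost in 14 of 23 alternatives, among them the removal of any control library, with adjusted p up to 0.138. The call in cKO was lost in 6 of 23, among them the removal of cKO iNK replicate 1, 3 or 4 or cKO iILC1 replicate 2 or 3, with adjusted p up to 0.124. Per kilobase it averaged 4.25 CPM in cKO iILC1, also below the 95th percentile of the receptor genes.

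Lamp1 lay lower in every control iILC1 library than in any control iNK library, with a log2 fold change of -0.63 (standard error 0.258, adjusted p = 0.170 in edgeR), where 13% of all genes tested did not overlap in that direction. Srgn (0.24 in cKO, -0.09 in control), Ctsw (0.17 in cKO, -0.32 in control) and Gzmc (0.49 in cKO, 0.34 in control) had estimates of less than 0.5 on the log2 scale in either genotype. The median estimate of the members was -0.38 in cKO and -1.10 in control, where all genes tested had 0.01 in cKO and 0.16 in control. With the background covariate the median over all genes in control shifted to 0.0038, and the estimates of Srgn and Ctsw there became 0.30 and 0.22, with the sign turned. The background was higher in control iILC1 than in control iNK in 2 of 3 libraries beyond the highest iNK library, at 3539 and 3388 CPM against 2912 CPM. All 10 markers of dividing cells were called lower in iILC1 than iNK in control, and 6 of 10 in cKO, and markers of other cells differed between the cell types too. Of 11 T and NKT markers 3 were called higher in iILC1 in cKO and 5 in control. Of 15 B lineage markers 2 were called higher and 7 lower in cKO, and 4 higher in control. The 12 neutrophil and monocyte markers had no call in edgeR in cKO, with 1 higher and 1 lower at an unadjusted p under 0.05 and 0 called by DESeq2, and a median log2 fold change of -0.26. In control 1 was called higher and 1 lower, 7 were lower at an unadjusted p under 0.05 and the median was -2.35. Of all 26990 genes tested, 2692 in cKO and 5615 in control had an unadjusted p under 0.05 between the cell types. The part of these cells in the differences was not tested.

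**Figure D4:**
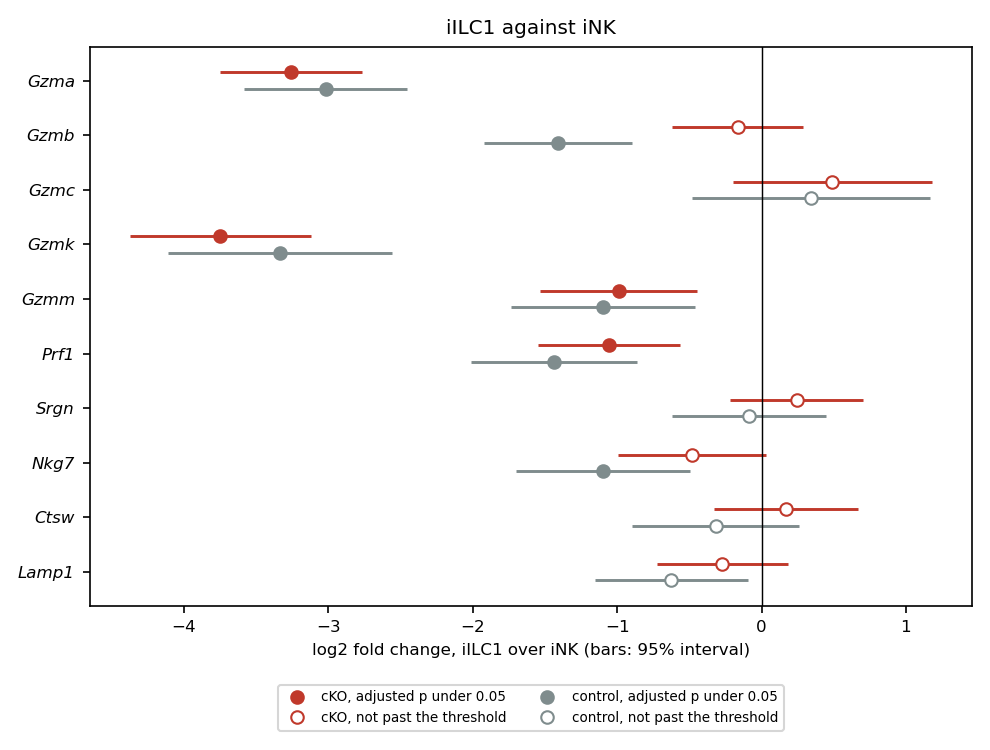
Log2 fold change of iILC1 over iNK for each granule gene in cKO (upper of each pair) and control (lower), with bars for the 95% interval and filled points for an adjusted p under 0.05 in edgeR. Gzma and Gzmk lie between -3.75 and -3.02 in both genotypes, while Gzmb is at -0.17 in cKO and -1.41 in control.

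Ordered by mean CPM per kilobase, Nkg7 came first in all 4 groups, at 1762 in cKO iNK, 2462 in control iNK, 1261 in cKO iILC1 and 1150 in control iILC1. In cKO iNK the order was Nkg7, Ctsw, Gzma, Prf1, Srgn, Lamp1, Gzmk, Gzmb, Gzmm and Gzmc. In control iNK it was Nkg7, Gzma, Ctsw, Prf1, Srgn, Lamp1, Gzmb, Gzmk, Gzmm and Gzmc. Gzma thus stood in place 3 in cKO iNK and in place 2 in control iNK, and Gzmb and Gzmk changed places. The ranges of neighbours overlapped for Ctsw and Gzma, Prf1 and Srgn, Srgn and Lamp1, and Gzmm and Gzmc in cKO iNK. In control iNK they overlapped for Nkg7 and Gzma, Prf1 and Srgn, Srgn and Lamp1, and Lamp1 and Gzmb.

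In cKO iILC1 the order was Nkg7, Ctsw, Srgn, Lamp1, Prf1, Gzma, Gzmb, Gzmc, Gzmm and Gzmk, and in control iILC1 it was Nkg7, Ctsw, Gzma, Srgn, Prf1, Lamp1, Gzmb, Gzmc, Gzmm and Gzmk. Gzma was in place 6 in cKO iILC1, at 74.4 CPM per kilobase, and in place 3 in control iILC1, at 238. Its range in cKO iILC1 overlapped that of Prf1 (75.8 CPM per kilobase), whereas in control iILC1 it stood clear of its neighbours Ctsw and Srgn. In cKO iILC1 ranges also overlapped for Nkg7 and Ctsw, Srgn and Lamp1, Lamp1 and Prf1, Gzmb and Gzmc, and Gzmm and Gzmk. In control iILC1 they overlapped for Nkg7 and Ctsw, Srgn and Prf1, Prf1 and Lamp1, and Gzmc and Gzmm. Gzmc averaged 6.01 in cKO iNK, 6.27 in control iNK, 8.53 in cKO iILC1 and 7.96 CPM per kilobase in control iILC1, above the 95th percentile of the receptor genes in each group (4.58, 3.65, 4.92 and 4.87).

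Across the 14 libraries, the members with profiles most like each other, by the root-mean-square difference of centred log2(CPM + 1) values, were Srgn and Ctsw (0.196), Nkg7 and Lamp1 (0.228) and Ctsw and Lamp1 (0.245). Gzma and Gzmb differed by 1.36, and Gzma and Gzmk, which adjoin on chromosome 13, by 1.15. Among the 10322 genes compared, those most like Gzma were Cmah (0.643), Klhl30 (0.650) and Eomes (0.745), and those most like Gzmb were Paqr4 (0.457), Slc7a5 (0.527) and Tmem163 (0.592). Libraries of a group share sort, cell type and genotype, so these values describe 4 group means more than 14 points.

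These genes were picked for profiles like those of Gzma and Gzmb over the same libraries, so their values are a description with no test. Slc7a5, which imports large neutral amino acids, was at 23.3 ± 2.43 CPM (SD, n = 4) in cKO iNK and 66.9 ± 10.3 CPM (SD, n = 3) in control iNK, and at 18.2 ± 4.53 CPM (SD, n = 4) in cKO iILC1 and 35.9 ± 13.9 CPM (SD, n = 3) in control iILC1. For cKO over control the log2 fold changes in iNK were -1.52 for Slc7a5, -1.38 for Tmem163, a zinc transporter, and -2.04 for Paqr4. In iILC1 they were -0.99 for Slc7a5, -1.75 for Tmem163 and -1.15 for Paqr4. Of the genes most like Gzma, Eomes, a T-box factor of the NK lineage, had genotype estimates of 0.14 in iNK and -0.48 in iILC1. Cmah, an enzyme of sialic acid synthesis, had -0.01 in iNK and -1.25 in iILC1, and Klhl30 had -0.68 in iNK and -0.83 in iILC1. For iILC1 over iNK the log2 fold changes were -3.09 in cKO and -2.47 in control for Eomes, -3.66 and -2.42 for Cmah, and -4.35 and -4.20 for Klhl30. Per kilobase, Tmem163, Paqr4, Cmah and Klhl30 averaged from 0.639 CPM (Klhl30 in cKO) to 3.85 CPM (Cmah in control) in iILC1. These lie below the 95th percentile of the receptor genes there, 4.92 CPM in cKO and 4.87 CPM in control. In cKO iILC1 Slc7a5 (4.91 CPM) lay just below it, and in cKO iNK Paqr4 (2.78) and Tmem163 (2.73) lay below 4.58 CPM. Such levels could not be told apart from background.

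Other genes of the granule pathway were read as 5 lists. In iNK, 2 of 9 genes of granzyme activation and protease control were lower in cKO, Serpina3g and Serpinb9b, both of them serine protease inhibitors. Serpina3g, whose product blocks lysosomal cathepsins, had 236, 204, 260 and 236 CPM in cKO iNK, against 577, 619 and 497 CPM in control iNK. The groups were far apart, and the log2 fold change was -1.27 (SE 0.230, adjusted p = 0.00411, edgeR quasi-likelihood test), with the call in all 23 alternatives. Serpinb9b had 17.3, 25.8, 14.8 and 30.2 CPM in cKO iNK, against 44.0, 45.8 and 52.0 CPM in control iNK. Its log2 fold change of -1.10 (SE 0.257) had an adjusted p = 0.0499 in edgeR and was lost in 12 of 23 alternatives, among them the removal of any control iNK library or of cKO iNK replicate 1, 2 or 3, which left adjusted p between 0.0737 and 0.218. Serpinb9, for an inhibitor of granzyme B, had a log2 fold change of -0.30 and did not pass.

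No gene of the other 4 lists was called for genotype in iNK by edgeR. As background for the counts that follow, 2125 of all 26990 genes tested had an unadjusted p under 0.05 in iNK, and 1221 in iILC1. Of 18 tested genes of granule docking, priming and fusion, 3 were lower at an unadjusted p under 0.05 and DESeq2 called Was, an actin regulator. Of 24 genes of lysosomal membrane and hydrolases, 3 were lower at an unadjusted p under 0.05 and DESeq2 called Gla, for a lysosomal galactosidase. Of 15 regulators of the cytotoxic programme, 1 was higher and 3 lower at an unadjusted p under 0.05, and DESeq2 called 0. Of 5 other granzymes, Gzmf and Gzmg were too low to test, and of the other 3 Gzme alone had an unadjusted p under 0.05 (higher). DESeq2 gave none of these 3 an adjusted p, so it could not call them. In iILC1 none of the 5 lists had a call in edgeR or DESeq2, and a single lysosomal gene and a single regulator were higher at an unadjusted p under 0.05. DESeq2 gave no adjusted p there to the 3 other granzymes tested, 1 protease control gene and 1 lysosomal gene.

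The list medians for cKO over control were -0.25 in iNK and 0.20 in iILC1 for docking and fusion, -0.23 and 0.25 for the lysosomal list, and -0.02 and 0.27 for the regulators, where all genes tested had 0.06 and 0.01. Without both libraries that stood apart the docking median in iILC1 was -0.00025 and the regulator median in iNK was 0.13, both with the sign turned. The interaction estimates were above 0 for 18 of 18 docking genes and 23 of 24 lysosomal genes, with medians of 0.44 and 0.52, where 48.3% of all genes were above 0 with a median of -0.03. With the background covariate, chosen for these lists after seeing the data, they were above 0 for 13 of 18 and 19 of 24, with medians of 0.09 and 0.23. Without both libraries that stood apart, likewise chosen after seeing the data, they were above 0 for 16 of 18 and 21 of 24, with medians of 0.18 and 0.24. None of these genes was called in edgeR, 1 docking gene and 5 lysosomal genes were higher at an unadjusted p under 0.05, and DESeq2 called 0 in both lists. It gave 1 lysosomal gene no adjusted p. For the interaction 1905 of all 26990 genes tested had an unadjusted p under 0.05. DESeq2 called Serpina3g in the protease control list, in which edgeR called none and 2 genes had an unadjusted p under 0.05. The regulators had 2 genes higher at an unadjusted p under 0.05, and the other granzymes 1 lower, with 0 called by either tool. Of the 3 other granzymes tested, 1 had no adjusted p from DESeq2. The background reads were higher in cKO than in control at the median in iNK and lower in iILC1.

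**Figure D5:**
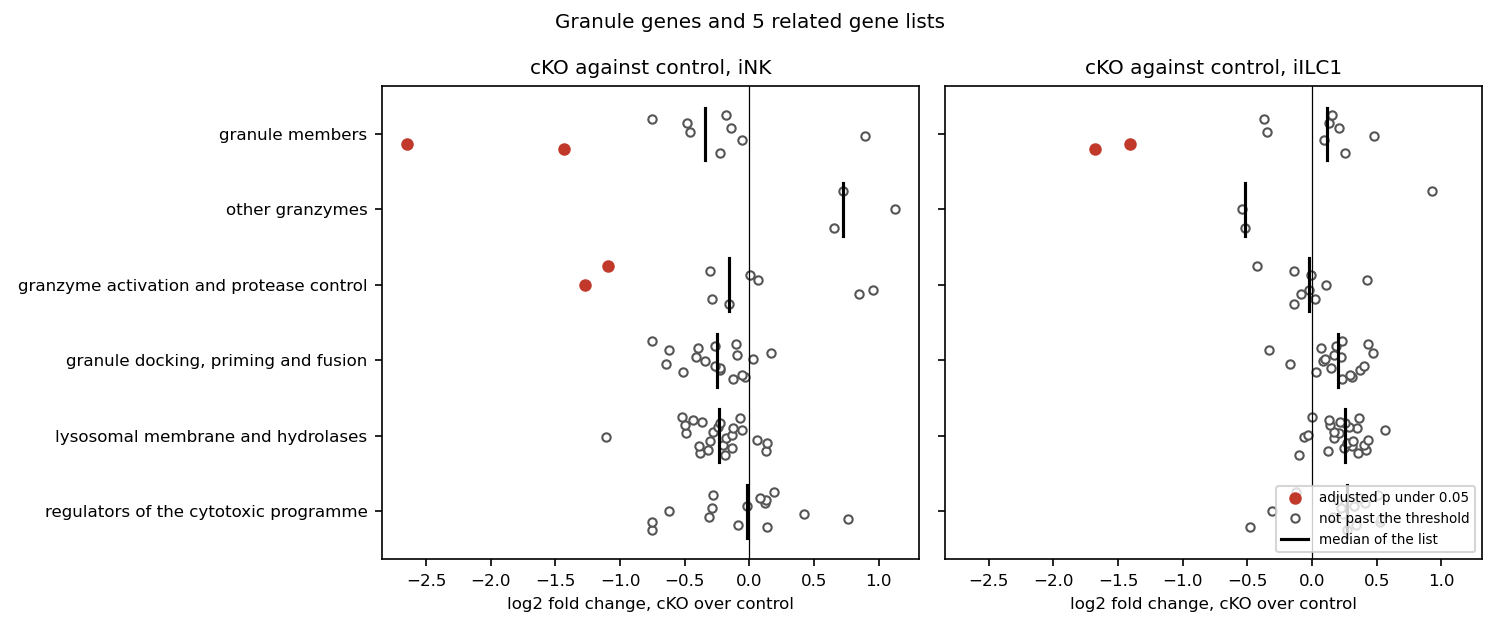
Log2 fold change of cKO over control for the tested genes of the granule set and of 5 related lists, in iNK (left) and iILC1 (right), with a point per gene, filled where the adjusted p was under 0.05 in edgeR, and a vertical line at each list's median. Besides Gzma and Gzmb, the filled points are Serpina3g and Serpinb9b in iNK, and the docking list has a median of -0.25 in iNK and 0.20 in iILC1.

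Between the cell types, 4 of 9 genes of protease control were lower in iILC1 in each genotype. Serpinb9b, Serpinb6b and Serpinb9 were lower in iILC1 than in iNK in control, with log2 fold changes of -2.22 (adjusted p = 2.23e-05, edgeR quasi-likelihood test), -1.07 and -1.03, and Cst7, for the cathepsin C inhibitor cystatin F, had -1.01. Without control iILC1 replicate 2 the calls for Serpinb6b (adjusted p = 0.111) and Serpinb9 (adjusted p = 0.138) were lost, and that for Cst7 was lost without control iNK replicate 1 or 2, without control iILC1 replicate 2 or 3 and with the background covariate (adjusted p of 0.0577 to 0.0888). In cKO the same 4 were lower, with -1.55 for Serpinb9b, -1.08 for Serpinb6b, -0.99 for Cst7 and -0.87 for Serpinb9, the last lost without cKO iNK replicate 4 (adjusted p = 0.0552) or cKO iILC1 replicate 3 (adjusted p = 0.0602). Serpinb9b averaged 2.33 CPM per kilobase in cKO iILC1, below the 95th percentile of the receptor genes there (4.92). Also in cKO, Serpina3g was higher in iILC1, at 969 ± 182 CPM (SD, n = 4) against 234 ± 23.3 CPM (SD, n = 4) in iNK (log2 fold change 2.05, adjusted p = 1.56e-07). In control edgeR did not call Serpina3g between the cell types, and DESeq2 called it higher in iILC1. Lyst, a regulator of lysosome size and traffic, was higher in iILC1 in both genotypes, with log2 fold changes of 1.97 in cKO (adjusted p = 7.20e-07) and 1.30 in control (adjusted p = 0.00326).

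The remaining docking genes with a call between the cell types were Sytl1 and Sytl3, both of the synaptotagmin-like family that tethers granules. Sytl1 was higher in iILC1 than in iNK in cKO (0.96, adjusted p = 0.0207 in edgeR). Sytl3 was lower in iILC1 than in iNK in control (-0.81, adjusted p = 0.0330 in edgeR). Each call was lost in 5 of 23 alternatives, with adjusted p up to 0.0814 for Sytl1 and up to 0.199 for Sytl3. Sytl1 was lost without cKO iNK replicate 1, 3 or 4, without cKO iILC1 replicate 1 and without both libraries that stood apart, and Sytl3 without control iNK replicate 1 or 2, without control iILC1 replicate 2 or 3 and with the background covariate. Of 24 lysosomal genes 4 were lower in iILC1 than in iNK in control, among them Npc1, a cholesterol transporter (-1.20, adjusted p = 0.000940). The call for Npc1 remained in all 23 alternatives. In cKO 1 was higher in iILC1 than in iNK, the protease gene Ctsb (0.77, adjusted p = 0.04996), and 1 lower, Ctss (-0.83, adjusted p = 0.0446). The first was lost in 12 of 23 alternatives (adjusted p up to 0.180) and the second in 8 (up to 0.129), both of them without cKO iNK replicate 1 or 3.

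Of the 15 regulators, Eomes, Myb and Prdm1 were among 4 lower in iILC1 in control, with log2 fold changes of -2.47, -2.32 and -1.44, and Ikzf2 was higher (1.19, adjusted p = 0.00316 in edgeR). In cKO 5 were lower, led by Eomes (-3.09), Myb (-2.50) and Zeb2 (-1.06), and Id2 (1.30) and Ikzf2 (0.95) were higher. Tbx21, for the T-box factor T-bet that both lineages use, did not pass in any comparison. Of the other granzymes none was called between the cell types in edgeR, with 1 higher at an unadjusted p under 0.05 in control and 0 in cKO. DESeq2 called 0 in cKO, and in control it gave none of the 3 tested an adjusted p. Among all 26990 genes tested 5615 had an unadjusted p under 0.05 in control and 2692 in cKO.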

How the data were processed

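RNA from 2000 sorted cells per sample was amplified with SMART-Seq v4 and made into libraries with Nextera XT from 1 ng of cDNA, per the labels' protocols; these kits do not mark strand. The deposited values are raw counts per Ensembl gene. Per the submitters' processing notes the tools were Trimmomatic 0.33, HISAT2 2.1.0 and featureCounts of Subread 1.6.5, with the build mm10. Which annotation release was counted, whether strand was used and how multiply matching reads were treated is not given in the sources used here. Of 46078 genes, 45143 had a symbol.

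The counts were tested with edgeR 4.0.16 (R 4.3.3) by its quasi-likelihood test with TMM scaling, after a filter by expression (minimum count 10, total 15), with the means of the 4 groups over 14 libraries and 10 residual degrees of freedom. P-values were two-sided and adjusted by Benjamini-Hochberg over 26990 genes, and a gene was called at an adjusted p under 0.05. The common biological coefficient of variation was 30.0%. Pairs of libraries of a group differed by 4.45 to 23.4 times the sampling noise (chi-square per degree of freedom) and none was counted as a duplicate; this measure covers counting error only and does not show that they are separate biological samples. The script was tested on simulated data.

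The 10 members and the lists were chosen with earlier results of these data known. All members are named in every comparison; of other lists every gene called for genotype is named, and up to 3 called genes per list and direction between cell types, and 3 genes most alike for each member called for genotype. Some genes that this rule names are not reported here. Genes named beyond that rule (Serpinb9, Tbx21, Gzme, Was, Gla and genes that DESeq2 called) were chosen after their values were seen. The alternatives were DESeq2 1.42.0 size factors and Wald test, no filter and a filter at 5 CPM, a fit of only the groups compared, a replicate block, a background covariate, both libraries that stood apart left out, marker genes left out, and each library left out in turn. Promoters are from RefSeq.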

Additional observations from a re-analysis of the deposited data

Results flagged for a closer look

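Gzma in cKO iILC1 replicate 1 was at 87.1 CPM, apart from the other cKO iILC1 libraries at 56.5 to 59.6 CPM. The gap to the nearest library was 0.897 of the range of the group, above Dixon's critical value for 4 samples. It was the single such case in 20 tests of the members in both groups of 4, and chance gives about 1 in 20. The library still lay below all control iILC1 libraries, and without it the log2 fold change of Gzma in iILC1 was -1.85.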

How the results depend on the processing

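The count of members called for genotype was 2 in iNK and 2 in iILC1 in each alternative, apart from 3 in iNK with only the groups compared and 1 in iILC1 without control iILC1 replicate 3. In iILC1 DESeq2 gave 2 of the 10 members no adjusted p. Leaving out each library in turn gave 2 to 2 members in iNK, 1 to 2 in iILC1, 4 to 6 between cell types in control, 3 to 5 in cKO and 0 to 0 for the interaction. Over all genes the calls in iNK, iILC1, cell type in control, cell type in cKO and interaction were 110, 13, 1056, 923 and 21. Leaving out libraries they ranged over 63 to 230, 4 to 22, 394 to 2050, 713 to 1094 and 10 to 33. The DESeq2 Wald test gave 294, 46, 2180, 1098 and 37, no filter 191, 47, 1331, 1010 and 56, the filter at 5 CPM 210, 30, 1593, 1191 and 28, the covariate 356, 53, 832, 1640 and 32, marker genes left out 95, 7, 985, 905 and 11, and only the groups compared 220, 16, 1696 and 1006. The share called higher between cell types in control was 23.3%, and 44.5% with the covariate. In iNK it was 38.2%, 23.8% by DESeq2 and 55.2% without cKO iNK replicate 2.

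With the replicate number as a block the members called were 2, 2, 6, 4 and 0 and the genes called 175, 30, 2212, 1206 and 40. Correlations of same-numbered libraries ran from -0.12 to 0.43, and 0 of 6, 3 of 6, 3 of 6 and 2 of 8 libraries were closest to their own number, so the numbers were not taken as pairs.

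Estimates that turned sign were all of uncalled members, and the cause was not tested. With the filter at 5 CPM they were Srgn between cell types in control (0.039) and Gzmm in the interaction (-0.0032). With the covariate they were Ctsw (0.0096) and Lamp1 (0.054) in iNK, Nkg7 in iILC1 (-0.063), Srgn (0.30) and Ctsw (0.22) between cell types in control, and Prf1 (-0.068) and Lamp1 (-0.0040) in the interaction. Without both libraries that stood apart they were Srgn (-0.073), Nkg7 (-0.14) and Lamp1 (-0.033) in iILC1, Srgn between cell types in control (0.066), Ctsw between them in cKO (-0.018), and Srgn (-0.053) and Lamp1 (-0.030) in the interaction. Leaving out single libraries gave -0.24 to 0.010 for Lamp1 and -0.27 to 0.37 for Gzmc in iNK. In iILC1 it gave -0.15 to 0.43 for Gzmc, -0.077 to 0.34 for Srgn, -0.14 to 0.31 for Nkg7 and -0.035 to 0.44 for Lamp1. It gave -0.28 to 0.070 for Srgn between cell types in control, -0.29 to 0.00065 for Gzmb in cKO, and -0.27 to 0.48 for Gzmc and -0.11 to 0.28 for Gzmm in the interaction. Depth limits Gzmc, Gzmk and Gzmm most, at 1.94 to 11.8 CPM in iILC1.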
